A study of Mus musculus with 2 samples.

Results

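The adult β-globin genes Hbb-bs and Hbb-bt and the kinase gene Eif2ak1 were followed through mouse erythroid differentiation. They were found by their symbols in the gene table of a CITE-seq experiment, in which surface proteins and mRNA are counted in the same single cells. The rule names 4 genes, of which 3 were described here out of 27998 genes in the table, and Ahsp, the fourth, was not analysed here. The cells came from pooled fetal livers of C57BL/6 embryos at e13.5, and were stained with antibodies to CD71, Ter119 and other surface proteins. Ter119+ cells were first removed magnetically and then mixed back into the Ter119- fraction in equal number. The proportion of Ter119+ cells was thus set by the design. The data are 1 cDNA library and 1 antibody library, and all 7863 cell barcodes of the cDNA library also carried antibody counts. Because there is 1 library of pooled embryos, there is no replicate error and no test between stages. All intervals given are 95% intervals that cover counting error only.

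Hemoglobin is a tetramer of α-like and β-like globin chains with a heme group in each, so an erythroid cell makes α- and β-globin in balance, and free α chains are toxic to it. Eif2ak1 encodes HRI, the heme-regulated kinase that phosphorylates the translation factor eIF2α when heme is scarce and so slows globin synthesis. In C57BL/6 mice the adult β-globin locus carries the duplicated genes Hbb-bs and Hbb-bt, which lie beside the embryonic β-like genes, whereas the α-globin genes are on another chromosome. Ter119 marks maturing erythroid cells, and CD71 is the transferrin receptor, which rises as erythroid cells begin to take up iron and falls late in maturation.

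On the mm10 build (GRCm38.p6, RefSeq annotation), Hbb-bt (ENSMUSG00000073940) lies at chr7:103812524-103813923 and Hbb-bs (ENSMUSG00000052305) at chr7:103826523-103827928, both on the minus strand. Eif2ak1 (ENSMUSG00000029613) lies at chr5:143817792-143902717 on the plus strand. Of the 444 coding bases of Hbb-bs and Hbb-bt in the GENCODE M1 transcripts, 1 differs, and the longest identical run is 416 bases. The last 60 coding bases, stop codon included, are shown because they hold this difference, which is in capitals.
Hbb-bs: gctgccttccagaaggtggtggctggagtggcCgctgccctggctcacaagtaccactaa
Hbb-bt: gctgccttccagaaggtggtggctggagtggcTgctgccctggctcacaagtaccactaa

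The copies differ far more after the stop codon, where 93 of 129 aligned bases were identical (72.1%), and a library made from the 3′ ends of mRNAs can tell them apart there. The adult α-globin copies Hba-a1 and Hba-a2 differ at 1 of 429 coding bases and at 0 of the 74 bases that align after the stop codon. Reads that match both copies equally are not counted by the counter the authors used, so the split between copies, and the ratio of β- to α-globin UMIs (unique molecular identifiers, the counted molecules), is not a molar ratio.

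The 250 bases upstream of each start site are shown because the 3 genes were followed together and the β-globin copies did not rise in equal proportion. Capitals mark 4 motifs, found on either strand. The box CACCC is known for binding KLF1, and the box CCAAT for binding factors such as NF-Y. The letters TATAA are the core of the TATA box, and AGATAA is a motif known from erythroid enhancers and promoters. No 2 of the motifs share bases in these windows.
Hbb-bs, chr7:103827929-103828178, minus strand: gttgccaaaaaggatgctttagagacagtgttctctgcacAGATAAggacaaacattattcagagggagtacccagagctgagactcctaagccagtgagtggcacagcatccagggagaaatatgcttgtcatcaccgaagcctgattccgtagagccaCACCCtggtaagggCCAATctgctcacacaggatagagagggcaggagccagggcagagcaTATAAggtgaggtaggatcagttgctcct
Hbb-bt, chr7:103813924-103814173, minus strand: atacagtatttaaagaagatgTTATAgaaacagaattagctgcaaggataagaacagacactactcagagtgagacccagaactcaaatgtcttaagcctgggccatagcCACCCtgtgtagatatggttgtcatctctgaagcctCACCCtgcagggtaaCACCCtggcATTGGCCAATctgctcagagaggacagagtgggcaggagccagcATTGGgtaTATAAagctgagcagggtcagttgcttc
Eif2ak1, chr5:143817542-143817791, plus strand: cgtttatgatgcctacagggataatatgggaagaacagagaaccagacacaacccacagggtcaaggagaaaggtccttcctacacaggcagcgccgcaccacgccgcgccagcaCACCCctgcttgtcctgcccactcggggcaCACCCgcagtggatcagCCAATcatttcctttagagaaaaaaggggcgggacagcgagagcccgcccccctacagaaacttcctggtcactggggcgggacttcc

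The β-globin windows aligned over 243 bases, of which 178 were identical (73.3%). Hbb-bs held CACCC at 1 place, 90 bases upstream of its start, and Hbb-bt at 3 places, 140, 104 and 89 bases upstream. The TATAA nearest to the start began 29 bases upstream in Hbb-bs and 28 bases upstream in Hbb-bt, and no TATAA was found in the window of Eif2ak1. AGATAA was found in Hbb-bs alone among the 3. Over all 32851 RefSeq promoter windows of this length, 52.0% held CACCC, 33.8% CCAAT, 22.8% TATAA and 10.0% AGATAA on either strand, so a match by itself is common. A match is a description of the letters and not a bound site.

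Cells with few lineage antibody counts were placed in 6 stages from their Ter119 and CD71 counts. S0-low (1395 cells), S0-medium (1000) and S1 (602) had low Ter119 and rising CD71, with median CD71 counts of 83, 440 and 1150. S2 (1258) had intermediate Ter119 with high CD71, S3 (835) high Ter119 with high CD71, and S4/S5 (859) high Ter119 with falling CD71. The median depth was 3944 to 10285 UMIs per cell, lowest in S4/S5. All 10 erythroid marker genes were detected in every stage. Their summed level was 2229 counts per 1000000 UMIs (CPM) in S0-low, 17825 in S3 and 11729 in S4/S5. All 10 were also detected in the reference cells described below, at 783 CPM, so detection alone is not read as erythroid identity. In S0-low, 11.6% of cells lay in clusters named for other cell types. The summed level of 13 hepatocyte markers was 7413 CPM in S0-low against 811 to 1463 in the later stages. Clusters without a name were not counted, such as those with leading genes Ccr2 and Lyz2 (162 cells) or Dcn and Col3a1 (59 cells). Without the cells of the named clusters the S0-low mean of β-globin was 9014 CPM in place of 8669. That of Eif2ak1 was 33.0 CPM in place of 31.5, and the Hbb-bt share of β-globin was 29.3% in place of 29.1%.

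RNA released from other cells gives UMIs of abundant genes in droplets of cells that do not express them. The members were therefore also measured in 650 reference cells, from clusters that were hepatocyte-like (189), megakaryocyte-like (96), myeloid-like (281) or macrophage-like (84) by their leading genes, with a median depth of 7678 UMIs. Of these 650 cells, 162 also lay in S0-low and count on both sides of comparisons of S0-low with the reference. The intervals of those comparisons do not allow for this overlap. Every reference cell held Hbb-bs UMIs. The median β-globin level, Hbb-bs and Hbb-bt summed, was 6290 CPM in them, with quartiles of 5295 and 7639. The macrophage-like cells had the highest mean of the 4 types, 15754 CPM, and the megakaryocyte-like cells the lowest, 6486. The macrophage-like cells had a median Ter119 count of 77, against 6 to 9 in the other types. Their globin is thus not read as free RNA alone, and they are part of the reference mean and median used below.

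Adult β-globin rose at every step of the stage order, and most steeply from S1 to S2. The mean Hbb-bs level was 6089 CPM in S0-low and 10911 in S0-medium. It reached 17878 CPM in S1, 87292 in S2, 213626 in S3 and 337815 in S4/S5. The mean Hbb-bt level was 2580, 5181, 9944, 45070, 103787 and 137704 CPM in the same order. Both genes together took 0.720% of all UMIs in S0-low and 46.1% in S4/S5.

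The first stages sat in the range of the reference cells. The median β-globin level was 5940 CPM in S0-low and 6885 in S0-medium, inside or close to the reference quartiles, and the S0-low mean was 0.760 times the reference mean (0.751 to 0.770). The presence of β-globin UMIs in S0-low is therefore not read by itself as expression. The reference mean, 11406 CPM, was itself far above the reference median. With the reference median of each gene subtracted, 2360 CPM of β-globin was left in the S0-low mean, and its source was not tested. This remainder depended on the gates. The S0-low mean was 6103 CPM with gates set on log10 antibody counts and 6131 with a Gaussian mixture, both below the reference median. In S0-medium the mean of 16092 CPM lay well above the median, because the upper 5% of cells exceeded 40247 CPM. By S1 the median was 13489 CPM and the mean was 2.44 times that of the reference (2.41 to 2.47). In S2 the lowest 5% of cells were below 17688 CPM, above the upper reference quartile but below the 23038 CPM that the upper 5% of reference cells exceeded.

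The step from S1 to S2 was 4.76-fold for β-globin (4.72 to 4.79), from 27823 to 132363 CPM. It was 4.88-fold for Hbb-bs and 4.53-fold for Hbb-bt. The steps on either side were smaller, 1.73-fold from S0-medium to S1, 2.40-fold from S2 to S3 and 1.50-fold from S3 to S4/S5. With the reference mean subtracted the step from S1 to S2 was 7.37-fold, and in UMIs per cell, with no correction for depth, it was 3.39-fold.

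**Figure D1:**
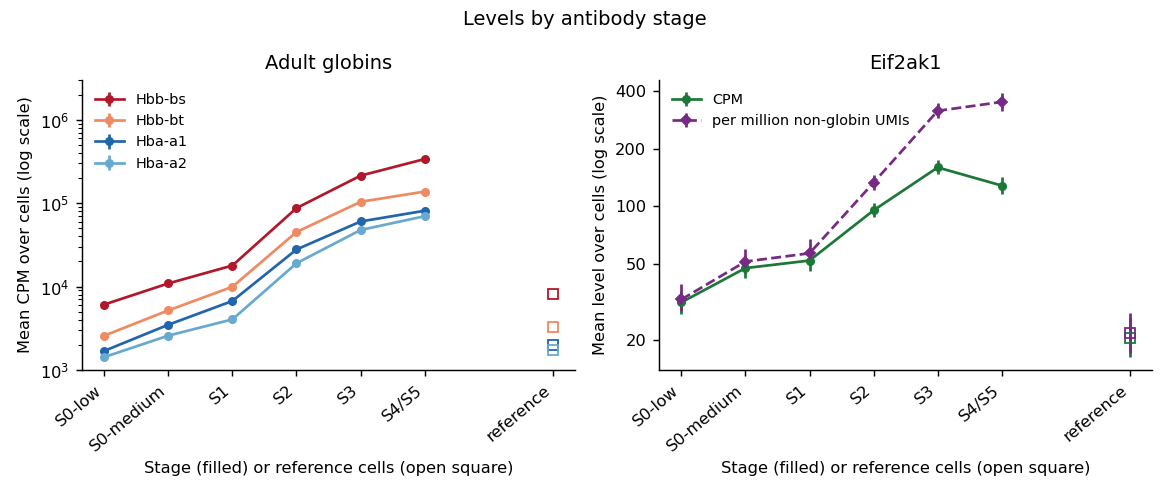
Mean levels over cells on log axes, for the adult globin genes in CPM at left and for Eif2ak1 in CPM and per 1000000 UMIs of non-globin genes (non-globin CPM) at right, in the 6 stages (filled symbols) and in the 650 reference cells (open squares). Bars are 95% counting intervals, mostly smaller than the symbols for the globins. Hbb-bs stays above Hbb-bt in every stage, and for Eif2ak1 the scales part from S2 on, with 128 CPM against 350 non-globin CPM in S4/S5.

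Globins took 1.08% of UMIs in S0-low and 64.9% in S4/S5, which lowers the CPM of every other gene. Levels were therefore also taken per 1000000 UMIs of non-globin genes (non-globin CPM), and a gene was counted as called where its ratio between stages was at least 2 with at least 50 UMIs in both stages together. From S3 over S0-low, the median ratio of all 9131 genes with enough UMIs was 0.515 on this scale (log2 of -0.96) and 0.310 in CPM (log2 of -1.69). All 3 members were called higher in that comparison, Hbb-bs at 56.5-fold, Hbb-bt at 59.4-fold and Eif2ak1 at 9.65-fold. Of all genes tested, 10.9% were called higher and 48.5% lower. On this scale S0-low was 0.936 times the reference mean for Hbb-bs, 1.05 times for Hbb-bt and 1.50 times for Eif2ak1. The β-globin ratios thus start near the reference mean.

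Step by step, the members passed the fold at different points. From S0-low to S0-medium both β-globin genes were called, at 2.03- and 2.08-fold, and Eif2ak1 was at 1.58-fold, where 1.66% of genes were called higher. Hbb-bs was at 1.79-fold in CPM and 1.84-fold in UMIs per cell, and its median went from 4299 to 4747 CPM, from a stage at the reference level. Hbb-bt stayed past 2-fold on both of these scales, and its median went from 1665 to 2129 CPM. Pooled over cells, Hbb-bs went from 0.511% to 0.696% of all UMIs and Hbb-bt from 0.209% to 0.326%. Both pooled steps were below 2-fold, so the 2 calls hold for means over cells and not for pooled UMIs. From S0-medium to S1 no member was called, the ratios being 1.27 for Hbb-bs, 1.51 for Hbb-bt and 1.10 for Eif2ak1, and 0.559% of genes were called. From S1 to S2 all 3 were called, at 6.18-, 5.70- and 2.34-fold, against 4.34% of genes. From S2 to S3 all 3 were called again, at 3.56-, 3.31- and 2.37-fold, against 5.01% of genes. From S3 to S4/S5 the β-globin genes were called at 2.44- and 2.02-fold and Eif2ak1 was at 1.11-fold, where 2.87% of genes were called higher and 7.67% lower.

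Eif2ak1, the HRI gene, was a low gene that was highest in S3 in CPM. The S0-low mean was 31.5 CPM (27.5 to 36.1) and the S0-medium mean 47.5 (42.3 to 53.5). The mean was 52.1 CPM in S1 (45.6 to 59.6), 95.2 in S2 (87.6 to 103), 159 in S3 (146 to 173) and 128 in S4/S5 (116 to 141). These values rest on 305 to 726 Eif2ak1 UMIs per stage. The order of the levels was S0-low, S0-medium, S1, S2, S4/S5 and S3, and of these neighbours S0-medium and S1 had overlapping intervals, with a ratio of 1.09 (0.924 to 1.30).

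With the main gates even S0-low lay above the reference for this gene. The reference mean was 20.6 CPM (16.4 to 26.1), and S0-low was 1.53 times as high (1.19 to 1.97). This depended on the gates. The S0-low mean was 24.6 CPM on the log10 antibody scale and 24.7 with a Gaussian mixture, both inside the reference interval. Among the reference types the mean ran from 14.3 CPM in hepatocyte-like cells (9.0 to 23.9) to 38.0 in macrophage-like cells (22.4 to 64.7), and the interval of the latter overlapped that of S0-low. The level in S3 was 5.06 times that in S0-low (4.34 to 5.91), and 4.84 times without the cells of the reference clusters. With the reference mean subtracted from both stages it was 12.8-fold. How much of the Eif2ak1 level in reference cells was free RNA, and how much their own expression, was not tested. This ratio is thus not read as one corrected for free RNA.

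A like order was seen in the share of cells with an Eif2ak1 UMI. Thinned to 2000 UMIs per cell, below the depth of every cell, 6.45% of S0-low cells held one, 8.10% of S0-medium, 11.8% of S1, 16.5% of S2, 27.2% of S3 and 20.6% of S4/S5, against 3.85% of reference cells. Without thinning the shares were 19.5%, 34.9%, 38.4%, 42.2%, 51.7% and 35.2%, and 14.0% in the reference.

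The steps of Eif2ak1 depended on the denominator. From S1 to S2 it was 2.34-fold in non-globin CPM, 1.83-fold in CPM and 1.14-fold in UMIs per cell (0.996 to 1.30), and from S2 to S3 it was 2.37-, 1.67- and 1.33-fold, so both steps passed the fold of 2 in non-globin CPM alone. Non-globin CPM are means over cells. S1 and S2 held 0.507 and 0.577 Eif2ak1 UMIs beside 9873 and 6143 non-globin UMIs per cell. Pooled over cells in this way, the step from S1 to S2 was below 2-fold, and that from S2 to S3 was above it. In UMIs per cell the largest step was the first, from S0-low to S0-medium, at 2.0-fold (1.73 to 2.31). UMIs per cell are not corrected for depth. On that scale the median ratio of all genes tested was 1.31 from S0-low to S0-medium, 0.549 from S1 to S2 and 0.459 from S2 to S3. The last step differed in direction. From S3 to S4/S5 it was 0.804-fold in CPM (0.707 to 0.913), 0.650-fold in UMIs per cell (0.575 to 0.734), and 1.11-fold in non-globin CPM (0.974 to 1.27). The mean number of non-globin UMIs per cell was 3235 in S3 and 1497 in S4/S5, and the median gene was at 0.400-fold in UMIs per cell. Eif2ak1 thus had fewer UMIs per cell in S4/S5 than in S3, 0.499 against 0.769. Its mean over cells in non-globin CPM was not distinguishable between them. Pooled over the cells of each stage, its share of non-globin UMIs was higher in S4/S5, since its UMIs per cell fell less than the non-globin UMIs did.

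Finer antibody groups followed the rise of the members along the surface markers. The cells with low Ter119 were cut into 10 equal groups by CD71, those with intermediate Ter119 into 5 by Ter119 and those with high Ter119 into 5 by falling CD71. The groups with intermediate Ter119 held S2 and also 211 cells in no stage, with CD71 below that of S2. The median β-globin level was 5679 CPM in the first group and still 7902 in the eighth, at a median CD71 count of 645, and it reached 10563 in the ninth and 18577 in the tenth. Within intermediate Ter119 it went from 37218 to 231821 CPM, and within high Ter119 from 265090 to 553870.

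Eif2ak1 was at 23.8 non-globin CPM in the first group (15.5 to 39.5) and 61.7 in the tenth (51.7 to 78.3). It was 216 in the last group with intermediate Ter119 (180 to 263) and 399 in the fourth group with high Ter119 (343 to 466). In the group with the least CD71 it was 292 (240 to 358), and its UMIs per cell there were 0.346, against 0.841 in the first group with high Ter119. The antibody groups share 1 library, and the first of them held up to 24.3% of cells from reference clusters.

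**Figure D2:**
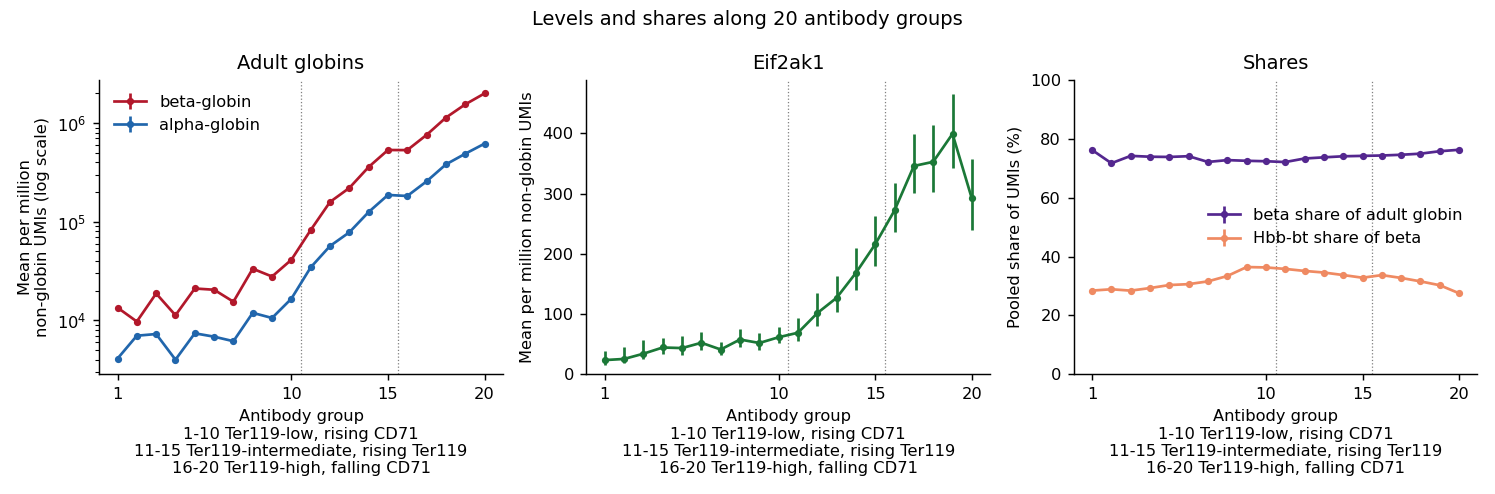
Levels in non-globin CPM of β- and α-globin (left, log axis) and Eif2ak1 (middle), and pooled shares of UMIs in percent (right), along 20 antibody groups ordered by the surface markers. Bars are 95% counting intervals and dotted lines part the Ter119 classes. The globins and Eif2ak1 climb through the intermediate class, and Eif2ak1 is lower in the last group, at 292, than in the group before it, at 399.

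The genes whose profiles were most like those of the members were sought over the 20 groups among 8109 genes with at least 200 UMIs, by Pearson's r of log2 levels. The groups come from 1 library and depth changes along them, so r is a description. For Hbb-bs they included Hbb-bt (r = 0.998), Hba-a2 (0.996), Alas2, the erythroid enzyme of the first step of heme synthesis (0.996), and Gm10116 (0.995). For Hbb-bt they included Hbb-bs, Alas2, Hba-a2 and Hba-a1, all between 0.996 and 0.998. For Eif2ak1 they were Top1, topoisomerase I (0.995), Tfdp2, a dimerization partner of E2F factors (0.992), Fbxo9, an F-box protein (0.991), Gadd45a, a stress-inducible gene (0.990), and Usp32, a deubiquitinase (0.989). No gene was among the 5 of both Eif2ak1 and a β-globin gene.

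The balance of β- to α-globin was taken as the share of β-globin in the UMIs of the 4 adult genes. The pooled share moved within a narrow range, at 73.9% in S0-low and 73.1% in S0-medium, then 72.4% in S1, 73.7% in S2, 74.6% in S3 and 75.8% in S4/S5, and 74.8% in the reference. The corresponding ratios of β- to α-globin UMIs were 2.83, 2.71, 2.63, 2.81, 2.93 and 3.14. With the median reference level of each gene subtracted, the shares in stage order were 69.3%, 71.0%, 71.2%, 73.8%, 74.6% and 75.9%. The fall before S2 was thus absent on that scale. The first of these values rests on the 2360 CPM of β-globin left there and is not read as a corrected share. The source of the early fall was not tested. From S1 to S4/S5 the share was 3.40 percentage points higher (3.18 to 3.62), and each of the 3 steps between them was an increase, of 1.31, 0.83 and 1.25 points. With gates set on log10 antibody counts the step from S1 to S2 was instead a decrease, from 73.1% to 72.7%, and the share in S4/S5 remained above that in S1, by 2.95 points. The step from S0-low to S0-medium also depended on the gates. It was an increase on the log10 scale, from 73.7% to 74.3%, and with a Gaussian mixture, from 73.8% to 74.0%. The step into S1 was a decrease with both, to 73.1% and 72.6%.

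The size and the direction of this shift depended on which copies were counted. From S1 to S4/S5 the share of Hbb-bs rose by 7.80 points against Hba-a1 alone and by 0.926 points against Hba-a2 alone. The share of Hbb-bt rose by 2.82 points against Hba-a1, from 60.3% to 63.1%, but fell by 5.42 points against Hba-a2, from 72.0% to 66.6%. With all 4 copies and the reference mean subtracted the shift was 5.85 points.

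The quartiles of the share over single cells drew closer together as globin UMIs per cell rose, while its standard deviation did not fall throughout. Over cells with at least 20 adult globin UMIs the median share was 74.9% in S0-low, with quartiles of 70.2% and 78.8%, and 74.6% in S3, with quartiles of 72.6% and 76.4%. In S4/S5 the median was 76.0% and the quartiles were 74.5% and 77.7%. In S0-low the standard deviation over cells was 7.04 points, against 6.30 from binomial counting alone at the same UMIs. In S0-medium, S1 and S2 it was 6.46, 5.85 and 5.28 points, against 4.77, 3.55 and 1.85. In S3 it was 5.82 points against 1.10, and in S4/S5 9.21 against 0.949. Cells thus differed by more than counting in the late stages and also before them. Without cells in which embryonic globins made up at least 5% of globin UMIs the standard deviation was 3.19 points in S3 and 2.68 points in S4/S5.

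A small set of cells held more α- than β-globin UMIs. They were 39 of 859 cells in S4/S5 (4.54%), 12 of 835 in S3, 9 of 1258 in S2, 1 of 602 in S1, 5 of 998 in S0-medium and 5 of 1331 in S0-low. All 39 in S4/S5 and all 12 in S3 drew at least 50% of their globin UMIs from the embryonic genes Hbb-y, Hbb-bh1 and Hba-x, which are known from primitive erythroid cells of the yolk sac. Of the other cells in these stages, 2 of 820 and 2 of 823 did so. In the 39 cells Hbb-y alone gave 75.1% of globin UMIs, and the share of all β-like genes in all globin UMIs was 83.2%, against 76.6% in the other cells of S4/S5. In S3 and S4/S5 the cells with little adult β-globin were thus rich in embryonic β-like globin. This did not hold for every earlier cell, since 3 of the 9 cells in S2 and 4 of the 5 in S0-low drew at least 5% of their globin UMIs from embryonic genes. In S0-medium 0 of the 5 did, with 0.614% embryonic globin and 43.2% β-like UMIs.

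**Figure D3:**
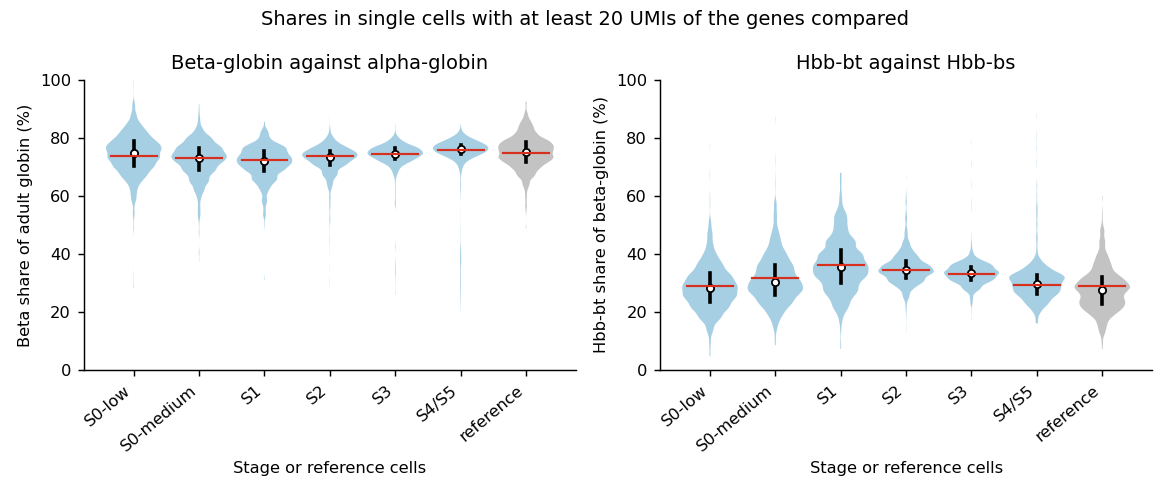
Distribution over single cells of the β share of adult globin UMIs (left) and of the Hbb-bt share of β-globin UMIs (right), in percent, per stage and in reference cells (grey), for cells with at least 20 UMIs of the genes compared. White points are medians, black bars the quartiles and red lines the pooled shares. The quartiles of the β share close in on a median of 76.0% in S4/S5 with a thin tail below 50%, and with these gates the Hbb-bt share is highest in S1, at 36.3%, whereas S2 is higher on the log10 antibody scale and equal to S1 under the Gaussian mixture.

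The β-globin copies did not rise in proportion. Hbb-bt made up 29.1% of β-globin UMIs in S0-low (28.7 to 29.4) and 31.9% in S0-medium (31.6 to 32.2). Its share was 36.3% in S1 (36.1 to 36.6), 34.6% in S2 (34.5 to 34.7), 33.0% in S3 (32.9 to 33.0) and 29.3% in S4/S5 (29.3 to 29.4). The reference cells held 29.1% (28.7 to 29.4). The share in S0-low differed from that of the reference by -0.03 points (-0.51 to 0.45), whereas S1 was 7.26 points above the reference (6.81 to 7.71) and 7.01 points above S4/S5. With the median reference level of each gene subtracted, the Hbb-bt share was 36.1% in S0-low, 38.2% in S1 and 29.0% in S4/S5. The S0-low value rests on the 2360 CPM of β-globin left there. In the reference the mean, 11406 CPM, lay further than that above the median, 6290, so 36.1% is not read as a corrected share. The difference between S1 and S4/S5 was 5.61 points when the classes came from a Gaussian mixture and 3.52 points with gates set on log10 antibody counts, under which S1 held 32.4%. On that scale S2 was the highest stage, at 35.5%, and with the mixture S1 and S2 were both at 34.7%. The share in S0-medium also depended on the gates, at 28.7% on the log10 scale and 29.7% with the mixture, against 29.1% in the reference.

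The α-globin copies also shifted, in the opposite order of copies. Hba-a2 made up 47.5% of α-globin UMIs in S0-low, 37.2% in S1 and 46.2% in S4/S5, against 46.8% in the reference. With these gates S1 held both the highest share of Hbb-bt and the lowest share of Hba-a2.

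In single cells with at least 20 β-globin UMIs the median Hbb-bt share was 35.6% in S1, with quartiles of 30.1% and 41.5%, and 29.8% in S4/S5, with quartiles of 26.3% and 32.8%. The quartiles of these stages overlapped. The standard deviation over cells in S1 was 9.25 points, against 4.56 from binomial counting alone, and in S3 it was 4.33 against 1.41.

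Globin load gave an order of the cells that did not use the antibodies. Staged cells outside the reference clusters were cut into 10 equal groups by the share of globin in their UMIs, from 0.242% to 0.738% in the lowest group and from 66.1% to 88.2% in the highest. The β share was 74.1% in the lowest group, 71.1% in the fifth, where globin was 1.74% to 5.10% of UMIs, and 76.0% in the highest. The Hbb-bt share of β-globin took the opposite course, at 27.7%, 37.3% and 28.7% in the same groups. This order was made with globin counts, so no interval of these shares is read as a test. In the reference cells globin was 1.49% of pooled UMIs, above the range of the lowest group. Their β share was 74.8% and their Hbb-bt share 29.1%. The part of free RNA in the shares of the lowest group was not tested.

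Eif2ak1 rose with globin load up to a point. It was 29.1 non-globin CPM in the lowest group (23.9 to 35.6), 53.8 in the fifth (46.7 to 62.2), 471 in the ninth (426 to 521) and 276 in the tenth (236 to 323). Its UMIs per cell were 0.266, 0.483, 0.730 and 0.326 in these groups. Within S4/S5, the 286 cells with the most globin held 0.147 Eif2ak1 UMIs per cell (0.106 to 0.199), against 0.769 (0.671 to 0.878) in the 286 with the least. In non-globin CPM these were 140 (99.2 to 199) and 427 (370 to 492). Globin was 73.6% to 87.3% of UMIs in the former cells and 1.56% to 62.3% in the latter, at median depths of 4363 and 3886 UMIs, so the former held fewer non-globin UMIs, and their part in the UMIs per cell was not tested.

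**Figure D4:**
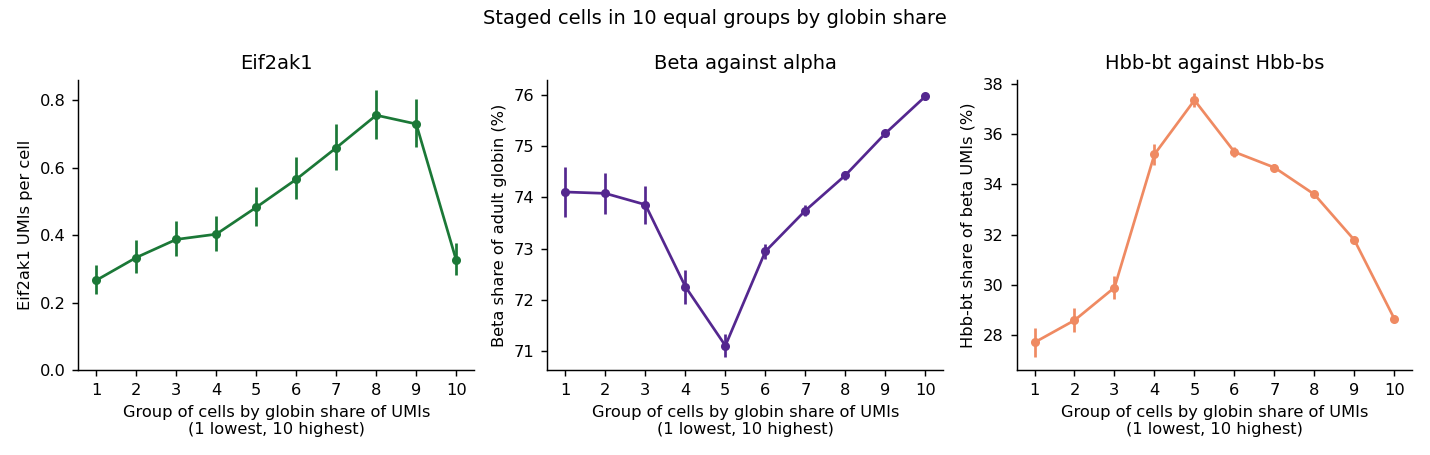
Eif2ak1 UMIs per cell (left), the β share of adult globin UMIs (middle) and the Hbb-bt share of β-globin UMIs (right, both in percent, axes not starting at 0) in 10 equal groups of staged cells ordered by their globin share of UMIs. Bars are 95% counting intervals. Eif2ak1 falls from 0.730 to 0.326 UMIs per cell in the last group, and the β share is lowest, at 71.1%, where the Hbb-bt share is highest, at 37.3%.

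HRI is 1 of 4 eIF2α kinases, and it was the only one of them called higher in S3 over S0-low in non-globin CPM. Eif2ak2, the kinase that senses double-stranded RNA, was at 0.828-fold (0.523 to 1.31). Eif2ak3, the kinase of the endoplasmic reticulum, was at 0.420-fold (0.170 to 1.04), and Eif2ak4, which senses uncharged tRNA, at 0.0649-fold (0.0234 to 0.180). In S3 their levels were 13.6, 2.45 and 0.656 non-globin CPM, against 315 for Eif2ak1. These are UMI levels of different transcripts, and 3′ counting makes no correction for length.

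The genes that act on or after HRI were described by lists. Over all genes the median was 0.515, with 10.9% called higher and 48.5% lower, and in CPM 5.86% were past 2-fold higher and 70.8% past 2-fold lower. Of 8 subunits of eIF2 and of its exchange factor eIF2B, 0 were called higher and 2 lower, Eif2b1 at 0.321-fold and Eif2b5 at 0.487-fold. Eif2s1, which encodes the eIF2α subunit that HRI phosphorylates, was at 1.0-fold and Eif2s2 at 1.17-fold, and the median of the list was 0.651. Of 5 subunits of the phosphatases that reverse the phosphorylation, 2 were called higher. These were Ppp1r15a (GADD34), the stress-inducible subunit, at 31.5-fold (25.9 to 38.3), and Ppp1cb, a catalytic subunit, at 6.12-fold. Ppp1r15a was at 34.5 non-globin CPM in S0-low, near the 31.1 of the reference. Ppp1r15b, the constitutive subunit, was at 0.655-fold and Ppp1ca at 0.589-fold, and the median was 0.779.

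Of 10 known targets of the eIF2α phosphorylation response, 7 had enough UMIs and 4 were called higher. These were Ppp1r15a again, Gadd45a at 25.5-fold (22.5 to 28.8), Ddit3, which encodes CHOP, at 3.11-fold, and Asns, asparagine synthetase, at 2.01-fold. Of these 4, Asns alone was lower in S3 than in S2, at 256 against 403 non-globin CPM. Gadd45a was at 55.5 non-globin CPM in S0-low, against 61.4 in the reference. Atf4, the transcription factor at the head of the response, was at 1.53-fold and Atf5 at 0.904-fold. In CPM 2 of the 7 were called higher, Ppp1r15a and Gadd45a, and Atf4 was below 1 at 0.882-fold. Atf4 is known to be regulated mainly in translation, which these counts do not measure.

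Of 6 genes listed as chaperones and cofactors of HRI, 0 were called higher and 4 lower, beside 48.5% lower over all genes. Whether the product of each acts with HRI was not tested. Fkbp5 was at 0.152-fold, Hsp90ab1, an HSP90 gene, at 0.221-fold, Hspa8 (HSC70) at 0.568-fold and Cdc37 at 0.735-fold, with a median of 0.336. Of the 9 genes listed for the quality control of α-globin chains, 8 were in the table and 6 had enough UMIs. Of these, 4 were called higher and 1 lower. Ube2o, a ubiquitin ligase that acts on free α chains, was at 18.5-fold (14.8 to 23.1) and Prdx2, an abundant antioxidant enzyme of red cells, at 10.3-fold. In S0-low Ube2o was at 13.2 non-globin CPM, against 19.9 in the reference, and Prdx2 at 1088 against 509. Hspa9 was at 0.272-fold. Sqstm1 and Ulk1, which act in autophagy, were at 3.68- and 3.22-fold, and at 1.60- and 1.65-fold in CPM.

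All 8 enzymes of heme synthesis were called higher, with a median of 11.6-fold. Alas2 was at 68.0-fold (56.3 to 82.2) and Fech, which inserts the iron, at 20.6-fold, while Cpox and Alad were at 6.84- and 6.53-fold. In S0-low Alas2 was at 58.9 non-globin CPM, against 46.6 in the reference, and Fech at 242 against 112. All 8 were also past 2-fold in CPM. Of 11 transcription factors known at erythroid globin promoters, 8 were called higher and 1 lower, with a median of 2.66-fold. Nfe2 was at 6.57-fold and Klf1, the factor that binds CACCC boxes, at 4.16-fold, whereas Tcf3 was at 0.663-fold and Ldb1 at 0.342-fold. In CPM 3 of the 11 were past 2-fold.

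**Figure D5:**
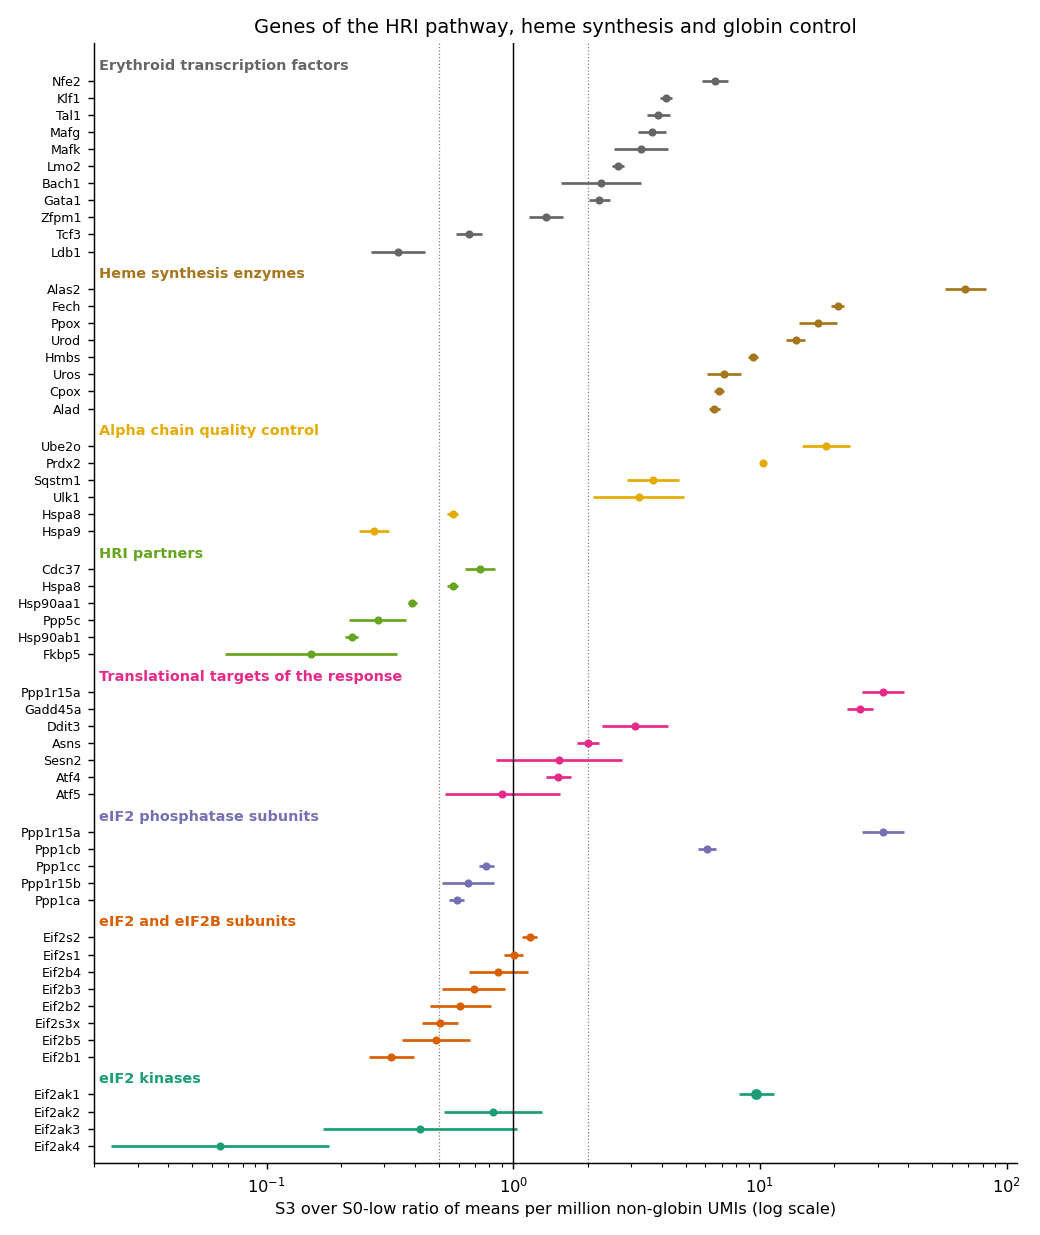
Ratio of the mean level in S3 to that in S0-low, in non-globin CPM on a log axis, for the genes with at least 50 UMIs in the 8 lists. Points are ratios and bars 95% counting intervals, the solid line is at 1 and the dotted lines are at the fold of 2 used for calls. Eif2ak1 stands at 9.65-fold among the kinases, and the heme enzymes all lie above 6-fold.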

How the data were processed

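Reads of the 10x 3′ cDNA library were mapped to mm10 with Cell Ranger by the authors, who deposited unnormalized UMI counts of genes and unnormalized antibody counts of the same cells, without their cell filters. Members and lists were chosen with earlier results of these data known. Cells with 300 to 5000 genes, at most 9% mitochondrial UMIs and no Scrublet doublet call (128 of 7863 cells, 1.63%, at an expected rate of 6%) were kept, which left 7244. Of these, 6160 were low in 5 lineage antibodies (summed counts at most the median plus 2 scaled median absolute deviations), and 5949 fell in a stage. Stages were set by k-means on centered log ratios of Ter119 and CD71, since the positions of the study's gates were not used here. The clusters behind the reference cells were made without the globin genes and the members.

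Levels are means over cells of CPM, of UMIs per 1000000 UMIs of non-globin genes, or of UMIs. Ratios carry a 95% interval from the Poisson variance of the weighted counts, means a gamma interval, shares an exact Clopper-Pearson interval and differences of shares a Newcombe interval. The scripts were tested on simulated data. The depth of 2510 to 38047 UMIs per cell leaves Eif2ak1 with under 1 UMI per cell, so its level rests on sums over cells. The named genes were the members, the other globin genes, 5 genes most like each member, and in each of 8 lists those with the 2 highest and 2 lowest ratios. Of the genes most like the members, 1 is not reported here. Some further list genes were named with these after their values were seen. Alternatives used other antibody scales and classes, other filters and denominators, single globin copies, and levels with the reference mean or median subtracted. Python 3.11.15, scanpy 1.11.5, scipy 1.17.1 and scikit-learn 1.9.0 were used.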

Additional observations from a re-analysis of the deposited data

How the results depend on the processing

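The 4 results were computed under 12 to 17 alternatives each, and 1 value changed direction, the difference of the β share between S4/S5 and S1 for Hbb-bt against Hba-a2, at -5.42 points. The step of β-globin from S1 to S2 (4.76-fold) was 3.30-fold with antibody counts on a log10 scale, 5.63-fold with a Gaussian mixture, 7.37-fold with the reference mean and 5.85-fold with the reference median subtracted, 4.86-fold in pooled CPM, 6.01-fold in non-globin CPM, 3.39-fold in UMIs per cell, 4.88-fold for Hbb-bs alone and 4.53-fold for Hbb-bt alone. The ratio of Eif2ak1 in S3 over S0-low (5.06-fold) was 6.40-fold with a Gaussian mixture, 12.8-fold with the reference mean subtracted, 9.65-fold in non-globin CPM and 3.45-fold in UMIs per cell. The β share in S3 (74.6%) was 74.4% on the log10 scale, 74.5% without border cells, 74.9% without cells of at least 5% embryonic globin, 77.8% for Hbb-bs against Hba-a1, 81.7% for Hbb-bs against Hba-a2, 63.3% for Hbb-bt against Hba-a1, 68.8% for Hbb-bt against Hba-a2, 75.2% for all β-like over all globin UMIs, and 73.8% as the mean over cells with at least 20 or at least 50 adult globin UMIs. Its difference between S4/S5 and S1 (3.40 points) was 2.95 points on the log10 scale, 3.95 without cells of at least 5% embryonic globin, 5.85 with the reference mean and 4.58 with the reference median subtracted, 7.80 for Hbb-bs against Hba-a1, 0.926 for Hbb-bs against Hba-a2, 2.82 for Hbb-bt against Hba-a1, 4.26 for all β-like genes, and 2.75 and 2.68 as means over cells with at least 20 and 50 adult globin UMIs. The cause was not tested. The other 27 values lay within the counting interval of the main value. Subtraction of the reference median, the removal of reference-cluster cells and the pairs with Hbb-bt were added after the data were seen. Subtraction of the median could not be run for Eif2ak1, whose reference median is 0, and no alternative was run for Ahsp, which was not analysed here. No paired analysis was possible because there is 1 cDNA library. Counting limits apply mostly to Eif2ak1, and differences between embryos, libraries or runs cannot be seen.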

Other observations

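Staged cells outside the reference clusters were also compared by their embryonic globin. In 245 cells embryonic globins made up at least 5% of globin UMIs, and in 62 of them at least 50%, a limit chosen after the values were seen. Hbb-bt gave 44.4% of adult β-globin UMIs in the 62 cells, 35.6% in the 245 and 31.7% in the 5532 others. Eif2ak1 was at 58.3, 102 and 151 non-globin CPM in the same sets. The sets hold different shares of the stages, with 41 of the 62 cells in S4/S5 but 104 of the 245 in S0-low and 34 in S0-medium. These values are thus not compared at one stage, and the part of the stage in them was not tested. Among the 650 reference cells 45 also passed the 5% limit, so passing it is not by itself read as expression of embryonic globin.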
